A study of Mus musculus with 6 samples.

Results

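Dppa2 peaks at divergent promoters are peaks of the V5-Dppa2 list that lay beside the starts of a pair of protein-coding genes transcribed away from each other. A peak was counted when its nearest annotated TSS belonged to a protein-coding gene and its midpoint lay within 1000 bp of the TSSs of at least 2 such genes, one on the minus strand and, at a higher coordinate, one on the plus strand. Of the 3336 peaks, 186 met this rule (5.58%, exact 95% interval 4.82 to 6.41%), and a further 2697 peaks were nearest to a protein-coding TSS without meeting it. The GENCODE M1 annotation of mm9 holds 1324 divergent pairs whose TSSs are at most 2000 bp apart, made from 2600 of its 22367 protein-coding genes. Of these pairs, 191 had a member peak, 1099 had no peak, and 34 had a peak within 1000 bp of 1 TSS only or off the centre.

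The study performed ChIP with an anti-V5 resin in CGR8, a mouse embryonic stem cell (ESC) line grown without feeders. The Dppa2 coding sequence carried an N-terminal V5 tag and was driven by a pPyCAG vector in stable clones selected with puromycin, so that the protein measured was a tagged transgene product and not the endogenous one. Parental CGR8 ESCs, which carry no V5 tag, gave the control ChIP, and 4 further libraries of the series are histone modification ChIPs. The peak list came from 1 V5-Dppa2 library, there was no replicate and therefore no test between conditions, and the sequencing depth behind the peaks is unknown.

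Divergent or bidirectional promoters are common in mammalian genomes. A single stretch of DNA, usually a CpG island without a TATA box, starts transcription of one gene on each strand, and many such pairs include genes of DNA repair, mitochondria, the proteasome and other functions that every cell uses. Dppa2 is a protein with a SAP DNA-binding domain, found in pluripotent cells and the early germ line,. At a divergent pair, a peak can lie over the shared stretch or over the first part of either gene, and the positions of its midpoint and edges tell which.

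The stretches between the TSSs of 5 bound pairs are shown first, because they are the shared promoter DNA that the peaks lie over. The first 4 are from the 10 strongest member peaks, and the last is a textbook pair of collagen genes with little CpG. All were read from mm9 on the plus strand, from the base after the minus-strand TSS to the base before the plus-strand TSS, with each CpG dinucleotide in capitals. The minus-strand gene is named first and runs to the left.
H1fx/Gm5577 (chr6:87931477-87931676): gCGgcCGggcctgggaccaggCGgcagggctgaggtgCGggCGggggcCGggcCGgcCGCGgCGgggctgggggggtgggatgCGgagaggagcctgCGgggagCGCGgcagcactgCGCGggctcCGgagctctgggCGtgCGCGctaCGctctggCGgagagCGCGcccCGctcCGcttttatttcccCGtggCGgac
Senp8/Myo9a (chr9:59598457-59598702): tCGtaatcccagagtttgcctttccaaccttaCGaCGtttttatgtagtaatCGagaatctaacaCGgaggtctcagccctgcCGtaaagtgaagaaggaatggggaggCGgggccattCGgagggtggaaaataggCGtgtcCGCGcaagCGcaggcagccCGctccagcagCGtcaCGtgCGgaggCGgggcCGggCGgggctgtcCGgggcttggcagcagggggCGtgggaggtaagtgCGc
Thap4/Atg4b (chr1:95651416-95651481): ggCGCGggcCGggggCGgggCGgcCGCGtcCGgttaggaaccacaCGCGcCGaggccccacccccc
Zswim7/Ttc19 (chr11:62094878-62094974): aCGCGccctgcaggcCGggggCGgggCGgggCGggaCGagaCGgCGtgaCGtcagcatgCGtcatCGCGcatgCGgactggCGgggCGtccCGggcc
Col4a4/Col4a3 (chr1:82583425-82583495): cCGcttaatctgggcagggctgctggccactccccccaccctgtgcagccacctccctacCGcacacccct

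The same stretch of 6 textbook pairs with no peak is given for contrast, in the same form.
Polh/Xpo5 (chr17:46339575-46339803): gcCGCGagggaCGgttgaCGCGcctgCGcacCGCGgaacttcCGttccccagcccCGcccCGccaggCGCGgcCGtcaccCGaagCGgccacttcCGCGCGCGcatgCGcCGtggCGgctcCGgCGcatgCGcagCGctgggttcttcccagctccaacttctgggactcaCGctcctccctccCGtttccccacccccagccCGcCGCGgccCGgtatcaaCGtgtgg
Sirt3/Psmd13 (chr7:148067769-148067866): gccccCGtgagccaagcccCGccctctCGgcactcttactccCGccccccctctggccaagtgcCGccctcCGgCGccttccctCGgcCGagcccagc
Toe1/Mutyh (chr4:116480246-116480327): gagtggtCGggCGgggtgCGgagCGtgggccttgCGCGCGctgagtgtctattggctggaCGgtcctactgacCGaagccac
Brca1/Nbr1 (chr11:101413270-101413462): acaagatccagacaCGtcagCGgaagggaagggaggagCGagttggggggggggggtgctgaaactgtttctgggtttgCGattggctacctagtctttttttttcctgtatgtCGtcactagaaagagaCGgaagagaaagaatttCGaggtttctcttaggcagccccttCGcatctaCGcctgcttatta
Mrps12/Sars2 (chr7:29526840-29527009): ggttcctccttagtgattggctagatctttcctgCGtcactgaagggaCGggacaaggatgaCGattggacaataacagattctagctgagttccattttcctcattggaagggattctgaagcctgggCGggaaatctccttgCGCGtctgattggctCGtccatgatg
Tsc2/Nthl1 (chr17:24769575-24769626): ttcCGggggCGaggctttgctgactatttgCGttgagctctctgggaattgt

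The stretch of H1fx/Gm5577 has 28 CpGs in 200 bp and that of Thap4/Atg4b has 11 in 66 bp, whereas Brca1/Nbr1 has 9 in 193 bp and Mrps12/Sars2 has 7 in 170 bp. The division was not clean, since Polh/Xpo5 has 34 CpGs in 229 bp without a peak and Col4a4/Col4a3 has 2 in 71 bp with one. Of the other bound stretches, Zswim7/Ttc19 has 17 in 97 bp and Senp8/Myo9a 22 in 246 bp. Without a peak, Toe1/Mutyh has 9 in 82 bp, Sirt3/Psmd13 9 in 98 bp and Tsc2/Nthl1 3 in 52 bp. Thus Senp8/Myo9a is less dense in CpG than Toe1/Mutyh and Sirt3/Psmd13. The letters GGGCGG of SP/KLF factors were found on either strand in the bound stretches shown except that of Col4a4/Col4a3, and in those without a peak except Brca1/Nbr1 and Tsc2/Nthl1.

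Divergent promoters were bound slightly more often than other promoters. Taking any peak midpoint within 1000 bp of a pair's centre as binding, 208 of 1324 pairs were bound (15.7%, 13.8 to 17.8%), against 2618 of 19767 protein-coding genes outside pairs, taken at 1 TSS a gene (13.2%, 12.8 to 13.7%). Intervals of shares are exact Clopper-Pearson intervals, except where a normal approximation is named. All of them cover counting error only, and reads amplified by PCR are not independent molecules. Under the stricter demand that both TSSs lie within 1000 bp of the midpoint of a peak whose nearest TSS is coding, 191 pairs were bound (14.4%, 12.6 to 16.4%), and 377 of the 2600 genes in pairs belonged to a bound pair, a background of 14.5% for the gene groups described further on. The order of the 2 shares depended on weak peaks. With a score of at least 200, 7.4% of pair centres and 7.77% of other TSSs were bound.

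At equal CpG content the order was the opposite. Divergent pairs are CpG-rich as a class, so all promoters were divided into 5 equal classes by the CpG observed to expected ratio of the 1000 bp around them, which is the number of CpGs divided by the number that the C and G content alone would give. In the highest class, 125 of 511 pairs were bound (24.5%, 20.8 to 28.4%), whereas 32.5% (31 to 34%) of other promoters were. In the class below it the shares were 12.2% (9.24 to 15.6%) for pairs and 19.2% (18 to 20.5%) for other promoters. The intervals of pairs and other promoters did not overlap in either of these classes, which together hold most of the pairs.

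In the lower classes the numbers were small and the intervals wide. The middle class gave 10.3% for pairs and 12.6% for other promoters, with overlapping intervals. The class below it gave 8 of 115 pairs (6.96%, 3.05 to 13.2%) and 3.85%. In the lowest, 0 of 48 pairs were bound, which allows a share of up to 6.25% by the limit of 3 counts used for every count of 0 (7.4% by the exact interval), beside 0.6% of other promoters. If other promoters had the pairs' spread over the classes, 21.3% (20.5 to 22%, by a normal approximation) of them would have been bound, against the 15.7% seen at pairs. Dividing by GC content instead gave 20.1%. In the highest GC class 31.3% of pairs (26.9 to 36%) and 37.3% of other promoters (35.8 to 38.9%) were bound, with intervals that just overlapped, and in the class below it 12.9% (9.92 to 16.5%) and 19.7% (18.4 to 21%). In the upper classes the pairs were thus bound less often than other promoters of like CpG content, and in the lower classes the intervals overlapped.

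**Figure D1:**
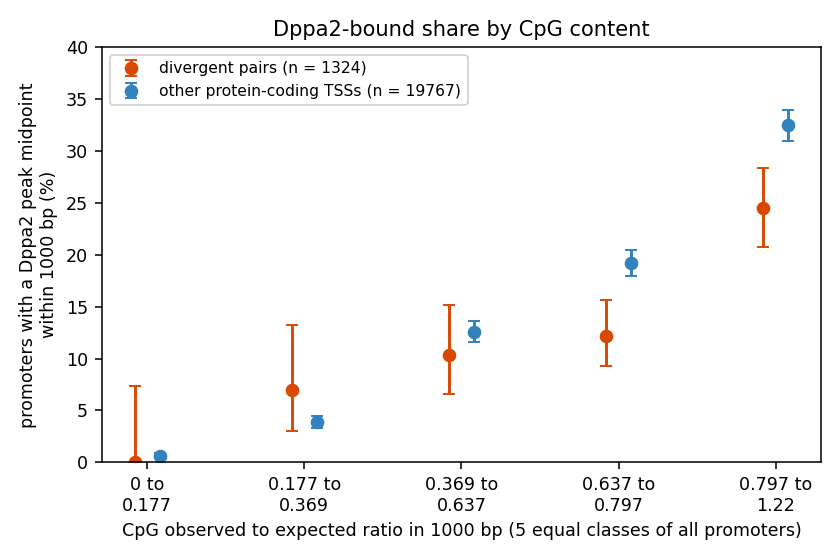
Share of promoters with a Dppa2 peak midpoint within 1000 bp (y axis, %) in 5 classes of the CpG observed to expected ratio (x axis), for divergent pairs and for other protein-coding TSSs; bars are exact 95% intervals for counting error. Both shares rise with CpG content, and in the highest class pairs stand at 24.5% and other TSSs at 32.5%.

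Bound pairs were richer in CpG than pairs with no peak. In the 1000 bp around the pair centre, bound pairs had a median of 84 CpGs (quartiles 71.5 and 101) and unbound pairs 62 (46 and 79). The median CpG observed to expected ratio was 0.834 (95% interval 0.814 to 0.849) against 0.738 (0.727 to 0.751), and the median GC content was 64.7% against 58.4%. The quartiles overlapped, so that CpG content separated the groups only in part. Bound promoters outside pairs had a median of 78 CpGs and a ratio of 0.779, and unbound ones 25 CpGs and 0.404, a much wider gap than at the pairs. The distance between the TSSs differed little, with a median of 130 bp (109 to 152) in bound pairs and 141 bp (131 to 156) in pairs with no peak, and the order turned with a score of at least 200 (142 and 141 bp) and with TSSs at most 1000 bp apart (126 and 119 bp).

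The difference in CpG was centred on the pair and gone within about 1 kb. The mean number of CpGs per 100 bp at the centre was 10.1 in bound pairs and 7.13 in pairs with no peak. At 950 bp on the plus-strand side it was 2.42 and 2.31, and at 1950 bp it was 1.11 and 1.15.

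**Figure D2:**
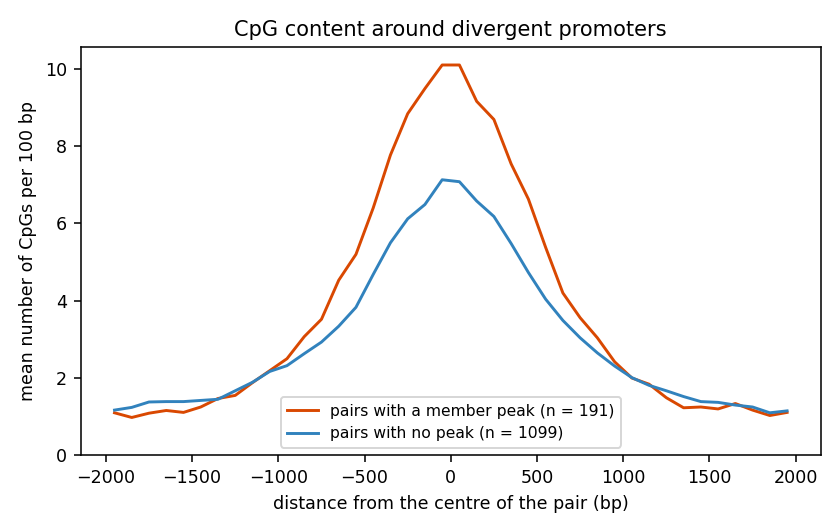
Mean number of CpGs per 100 bp (y axis) by distance from the centre of the pair (x axis, bp) for the 191 bound pairs and the 1099 pairs with no peak. The curves differ most at the centre (10.1 and 7.13) and meet at about 1000 bp on either side.

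CpG on both sides of the pair went with binding. Each gene's first 500 bp was counted separately, and the median over all these sides was 30 CpGs. Of pairs with neither side above it, 15 of 377 were bound (3.98%, 2.24 to 6.48%). With 1 side above, 94 of 625 were bound (15%, 12.3 to 18.1%), and with both sides above, 82 of 322 (25.5%, 20.8 to 30.6%). The intervals of these 3 classes did not overlap. Within bound pairs the richer side had a median of 51 CpGs and the poorer 28, against 37 and 21 in pairs with no peak. Sorting the sides fixes this order. The difference between the sides had a median of 21 CpGs (quartiles 8 and 32.5) in bound pairs and 13 (6 and 23) in pairs with no peak.

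Most member peaks covered both TSSs. This held for 172 of the 186 (92.5%, 87.7 to 95.8%), and 84 (45.2%) reached at least 500 bp into both genes. Peaks extended a median of 675 bp into the minus-strand gene and 610 bp into the plus-strand gene. Sorted within each pair, the reach had a median of 856 bp (218 to 1997) into the gene with the longer reach and 452 bp (0 to 1098) into the other. The sorting fixes the order of these medians. Peak widths, with a median of 1420 bp, exceeded the median distance between the TSSs many times over, so that covering both TSSs was set in part by the width.

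**Figure D3:**
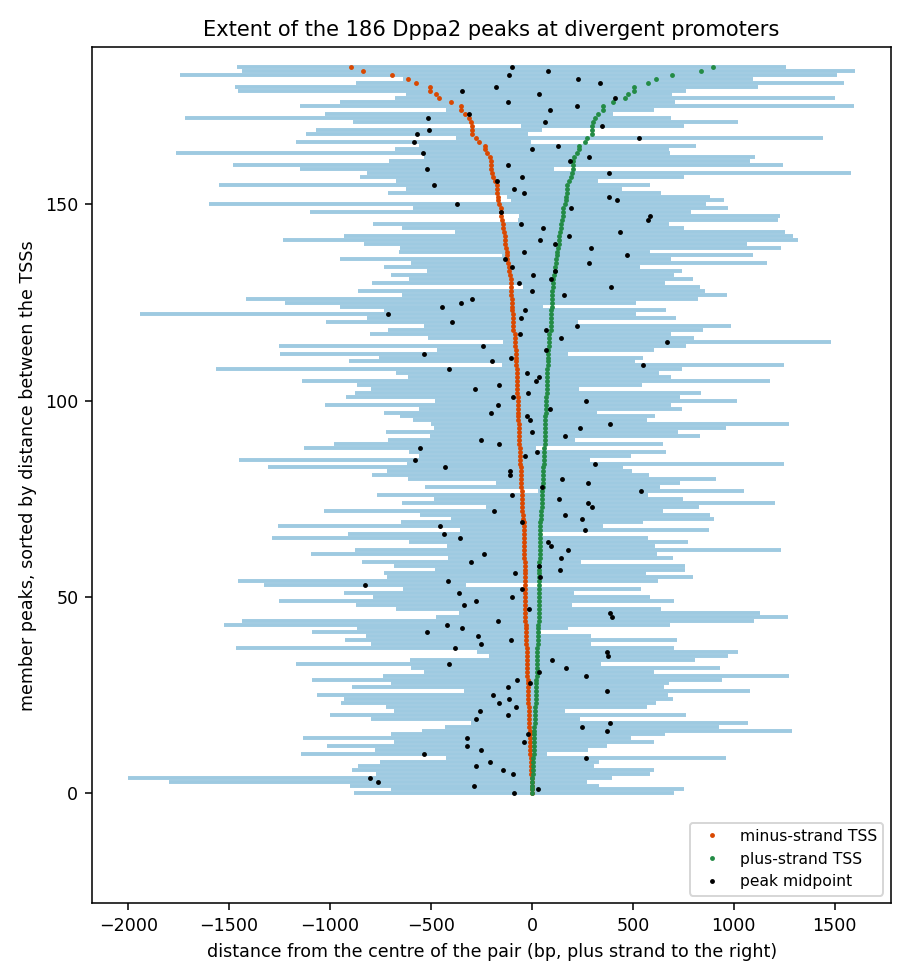
Extent of each of the 186 member peaks (blue lines) with its midpoint and the TSSs of its pair, by distance from the centre of the pair (x axis, bp), sorted from the closest TSSs at the bottom to the farthest at the top (y axis, peaks). Nearly all lines cross both TSSs (172 of 186), and midpoints lie on both sides of the centre.

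Midpoints lay inside one of the genes more often than between them. The midpoint was downstream of the minus-strand TSS in 80 members (43%), downstream of the plus-strand TSS in 57 (30.6%) and between the TSSs in 49 (26.3%, 20.2 to 33.3%). By annotated feature, 69 midpoints fell in an untranslated or non-coding exon of a coding gene, 43 in an intron, 35 in a coding exon and 39 between genes. The strands have no biological order, and the surplus on the minus strand is given as a count only.

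The place of the midpoint followed the distance between the TSSs. For TSSs 1 to 100 bp apart, 2 of 78 midpoints lay between them, which is a narrow target. This rose to 25 of 69 at 101 to 300 bp, 15 of 32 at 301 to 1000 bp and 7 of 7 above 1000 bp. The last class is fixed in part by the rule, because a midpoint must be within 1000 bp of both TSSs. Its 7 peaks were broad, with a median width of 2591 bp, and all covered both TSSs.

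By the rule, the share of pairs bound was flat up to 1000 bp and lower beyond. The drop is set in part by the rule, since the room for a midpoint near both TSSs narrows with their distance. It was 15.7% at 1 to 100 bp (79 of 504), 15.9% at 101 to 300 bp and 15.5% at 301 to 1000 bp. Above 1000 bp it was 4.58% (7 of 153, 1.86 to 9.2%) by the rule and 10.5% (6.1 to 16.4%) by the pair centre. Pairs this far apart had a median CpG ratio of 0.31 in the centre window, compared with 0.779 for the closest pairs. The 34 pairs with an off-centre peak were mostly of this kind, 18 of them with TSSs more than 1000 bp apart.

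Midpoints inside a gene lay on the CpG-richer side of the pair. Of the 137 members whose midpoint was inside a gene, 115 (83.9%, 76.7 to 89.7%) were on the side with more CpGs in its first 500 bp, with a median of 52 CpGs on the peak's side and 28 on the other. GC content gave the same count, 115, with medians of 69.6% and 57.2%. Of the 73 midpoints at least 200 bp inside, 69 were on the richer side (94.5%, 86.6 to 98.5%), with medians of 54 and 22 CpGs. Gene length and the number of annotated transcripts did not separate the sides, with 72 of 137 midpoints in the longer gene (52.6%, 43.9 to 61.1%) and 59 of 119 in the gene with more transcripts (49.6%).

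The lean towards CpG was not shown to be particular to divergent pairs. Among other coding peaks whose midpoint was downstream of the TSS, 1598 of 1929 (82.8%, 81.1 to 84.5%) had more CpGs downstream than upstream. With the midpoint upstream, 371 of 683 (54.3%, 50.5 to 58.1%) lay on the CpG-richer side, and over both classes 75.4% (73.7 to 77%) did. The 4 members at least 200 bp inside the poorer gene had sides that differed little. These were Dgkz/Gm9821 with 13 and 14 CpGs, Vmac/Ndufa11 with 32 and 36, Smpd2/Ppil6 with 33 and 36, and Cyb5d1/Lsmd1 with 30 and 37. Among midpoints less than 200 bp inside the poorer gene, some sides differed more. F630043A04Rik/Mrp63, at 199 bp, had 33 against 57 CpGs, and Prr3/Gnl1, at 52 bp, had 42 against 68. Others differed little, such as Noc4l/Ddx51 at 60 bp with 52 and 57. All of these pairs were named after their values were seen.

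**Figure D4:**
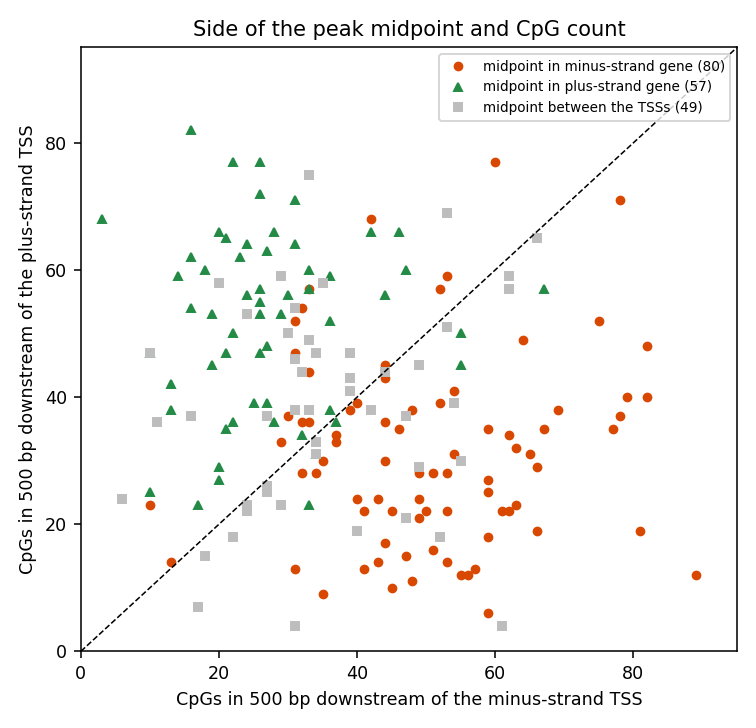
CpGs in the 500 bp downstream of the minus-strand TSS (x axis) and of the plus-strand TSS (y axis) for the 186 members, marked by where the peak midpoint lies; the dashed line marks equal counts. Midpoints in the minus-strand gene lie mostly below the line and those in the plus-strand gene mostly above it, 115 of 137 in all.

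Member peaks scored lower than other coding peaks. The score is 10 times the negative log10 of the peak caller's p-value, a measure that grows with depth as well as enrichment. Members had a median of 191 (quartiles 136 and 307, range 100 to 1049) and the others 225 (154 and 339, up to 3100). Of members, 86 (46.2%, 38.9 to 53.7%) scored at least 200, against 58.6% (56.7 to 60.5%) of the others, and these intervals did not overlap. Among the 10% of peaks with the highest scores there were 12 members (6.45%, 3.38 to 11%), beside 8.9% of the other coding peaks, with overlapping intervals. The widths were alike, with medians of 1420 and 1440 bp. Over 5% of the 36-base words occurred elsewhere in the genome in 17 members (9.14%) and in 14.5% of other coding peaks.

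The strongest member was at H1fx, which encodes a linker histone, and the gene model Gm5577. Its peak (chr6:87930161-87932400) scored 1049, rank 41 of the whole list, and reached 1315 bp into H1fx and 723 bp into Gm5577. The midpoint lay 195 bp inside H1fx, in its coding exon, the side with 59 CpGs in 500 bp against 35. The second was at Senp8, a protease that removes NEDD8, and Myo9a, a myosin with a RhoGAP domain (chr9:59598429-59599672, score 774, rank 110). It reached 969 bp into Myo9a and 27 bp into Senp8, with 54 and 16 CpGs on these sides. Both peaks leaned on the CpG-richer gene, Senp8/Myo9a almost wholly.

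Other strong members lay over the centre. The peak at Ccdc92 and the zinc finger gene Zfp664 (chr5:125341696-125344243, score 599, rank 229) had its midpoint between the TSSs, with nearly equal sides of 62 and 59 CpGs. That at Pxmp2, a peroxisomal membrane channel, and Pole, the catalytic subunit of DNA polymerase epsilon, also had its midpoint between them (score 582, rank 248), with 39 and 43 CpGs. Both peaks were central between sides of similar CpG count.

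The peak at Fancf and Gas2 was the most one-sided of the top 10 by CpG. Fancf belongs to the Fanconi anaemia core complex for the repair of DNA crosslinks, and Gas2 binds the cytoskeleton. The peak (chr7:59116467-59117896) scored 580, its midpoint was 455 bp inside the coding exon of Fancf, and it reached 99 bp into Gas2. The first 500 bp of Fancf has 89 CpGs and that of Gas2 has 12. Thus the peak lay over Fancf and touched the first bases of Gas2.

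Among the others of the top 10, the peak at Gm3625/Itsn2 scored 551, with its midpoint 221 bp inside Itsn2, an endocytic scaffold, where CpGs were 82 against 16. The peak at Thap4/Atg4b scored 546 and lay 242 bp inside Thap4, with sides of similar count, 78 and 71 CpGs, so that such sides did not always go with a central peak; Atg4b is a protease of autophagy. Both midpoints were on the CpG-richer side. The peak at Rasal2, a Ras GTPase-activating protein, and 2810025M15Rik scored 540, with 11.7% repeated words. The peak at Zswim7/Ttc19 scored 532, with its midpoint 84 bp inside Ttc19, a factor for assembly of respiratory complex III, with 71 CpGs against 31 on the side of Zswim7. Gm and Rik genes are predicted models, and pairs holding one were 54 of the 191 bound (28.3%) and 25.7% of those with no peak.

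At the shortest distances the pairs share nearly the same start. The TSSs of Map4k5, a kinase, and Atl1, a GTPase that shapes the endoplasmic reticulum, are 2 bp apart. Their peak scored 301, with its midpoint 88 bp inside Map4k5, the side with 79 CpGs against 40. Slc7a6os and the arginine methyltransferase gene Prmt7 are 3 bp apart with a score of 124. At 4 bp were Bag5, an Hsp70 cochaperone, with 2810002N01Rik, score 181, Trp53i13 with Abhd15, score 178, and Tcte2 with Mllt4, which encodes the junction protein afadin, score 275. The peak at Trp53i13/Abhd15 reached 1997 bp into Trp53i13 and 392 bp into Abhd15, with 35 and 9 CpGs on these sides. That at Tcte2/Mllt4 reached 1795 bp into Tcte2 and 269 bp into Mllt4, where CpGs were 61 and 22. These reaches were measured from the paired TSSs, and other annotated transcripts of the partner overlap the same DNA. The midpoint at Trp53i13/Abhd15 fell in an untranslated or non-coding exon of Abhd15. At Tcte2/Mllt4 it fell in an intron of both genes. Thus the peaks lay largely on 1 side of the paired starts, but not over 1 gene alone.

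At the longest distances the peak bridged the gap. Irx5, an Iroquois homeobox factor, and 4933436C20Rik are 1676 bp apart, with a peak of 3037 bp and a score of 204. Kat2a, a histone acetyltransferase, and Hspb9, a small heat shock protein, are 1385 bp apart, with the widest member, 3256 bp, and a score of 120. At the centre the CpG ratio was 0.622 and 0.214 in turn, below the median of 0.834 for bound pairs. The first 500 bp had 62 and 57 CpGs at 4933436C20Rik and Irx5, and 34 and 31 at Kat2a and Hspb9. A list without summits or coverage does not show where within these wide calls the signal lay.

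There were 5 members with 3 coding genes and 2 qualifying pairs each. Besides Ccdc92/Zfp664 they were at Rad17, which loads the DNA damage checkpoint clamp, with Taf9, a TFIID subunit (score 404), and at Elavl1, an RNA-binding protein, with Ccl25 (239). The others were at 2610024G14Rik with Polr2b, a core subunit of RNA polymerase II (142), and at Psmb9 with Tap1 (101). Zfp664 and Psmb9 count as 2 genes only because the annotation holds them under 2 identifiers. No pair had more than 1 member peak.

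The rule's limit of 1000 bp divided similar peaks. Just inside it were the Irx5 pair, with the farther TSS at 919 bp, and Acsf2/Chad at 912 bp with a score of 327. Just outside were Efnb2/4921522P10Rik at 1005 bp (score 119), Cdc40/Wasf1 at 1028 bp (142) and Uqcrh/Lrrc41 at 1032 bp (296).

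Among 20 textbook divergent pairs, the annotation paired 16 under the rule, and 3 of these had a member peak, beside 14.4% of all pairs. Col4a1/Col4a2 was among the 4 not paired. Atm, the kinase that responds to DNA double-strand breaks, and Npat, a coactivator of histone genes, had a peak of score 475 (rank 411) with its midpoint 37 bp inside Npat and CpG counts of 28 and 36. Col4a4 and Col4a3, type IV collagen chains of basement membranes, had a score of 319 (rank 1004) and a midpoint 6 bp inside Col4a3. That promoter was CpG-poor for a bound pair, with 42 CpGs and a ratio of 0.456 in 1000 bp. Psmb9, an immunoproteasome subunit, and Tap1, the peptide transporter of antigen presentation, had a score of 101, close to the lowest of the list (rank 3314).

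The 13 textbook pairs with no peak included CpG-rich ones. Hspd1/Hspe1, the mitochondrial chaperonins, had 107 CpGs and a ratio of 0.929, above the median of bound pairs. Mcm4/Prkdc, a replicative helicase subunit and a DNA repair kinase, had 85 CpGs and a ratio of 0.918. Polh/Xpo5, a translesion polymerase and an exportin of microRNA precursors, had 81 and 0.844. Surf1/Surf2, Ppat/Paics, Mrps12/Sars2, Sirt3/Psmd13, Psmb1/Tbp, Brca1/Nbr1, Tsc2/Nthl1, Ndufaf2/Ercc8 and Toe1/Mutyh had ratios of 0.448 to 0.841. The nearest peak midpoint to any of the 13 was 17050 bp away, at Surf1/Surf2. A missing call says that no peak passed the authors' limits, not that Dppa2 was absent.

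Genes of DNA repair and replication are frequent at divergent promoters, and 7 of the 56 in pairs were bound (12.5%, 5.18 to 24.1%), close to the background of 14.5%. Besides Pole, Fancf and Atm these were Pms1, of mismatch repair (score 193), and Rpa1, of the single-strand binding complex (181). The remaining members of the group were Wrn, the Werner helicase (159), and Gins1, of the replicative helicase (124). The midpoint was on the partner's side at Pms1/Ormdl1, 56 bp inside Ormdl1, and at Rpa1/Smyd4, 93 bp inside Smyd4. At Wrn/Purg and Abhd12/Gins1 it was between the TSSs, and of the 7 genes Fancf alone held the midpoint inside it.

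Of 59 meiotic and germline genes 3 were in divergent pairs, beside 2600 of all 22367 protein-coding genes. Only Stag3, a meiotic cohesin subunit opposite Gpc2, was in a bound pair (score 125), with the midpoint 164 bp inside Stag3. Among the 56 genes of this list outside pairs, 21 had a peak (37.5%), beside 13.9% of all protein-coding genes outside pairs. With 3 genes in pairs, 1 bound has an interval of 0.84 to 90.6%, and the shares cannot be compared.

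Of mitochondrial ribosome and respiration genes, 5 of 63 in pairs were bound (7.94%, 2.63 to 17.6%), an interval that includes the background. They were Mrpl48 (370), Mrpl40 (309), Ndufa11 (205), the import channel gene Timm23 (202) and Atp5c1 (138). At Mrpl48/Rab6 and Mrpl40/Hira the midpoint lay inside the partner, Rab6, a GTPase of Golgi traffic, and Hira, a chaperone of histone H3.3. No aminoacyl-tRNA synthetase gene was bound of 12 in pairs, which allows a share of up to 25% by the limit of 3 counts (26.5% by the exact interval). Of ribosomal protein genes 1 of 14 was bound, Rpl15 (191), a peak with 26.3% repeated words and a midpoint 791 bp inside the gene.

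Proteasome genes had 4 of 11 gene identifiers bound (36.4%, 10.9 to 69.2%), which are 3 of 10 symbols. Psmc2, an ATPase of the regulatory particle, stands opposite the chaperone gene Dnajc2 (score 415), and its peak reached 668 bp into Dnajc2 and 150 bp into Psmc2, with 45 and 10 CpGs. Psma7, an alpha subunit of the core, stands opposite Ss18l1 (270), and its peak midpoint was 139 bp inside Ss18l1. The third is Psmb9. The interval again includes the background.

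Histone genes had 3 of 38 in bound pairs (7.89%, 1.66 to 21.4%). These were H1fx and the testis variants Hist1h2ba and Hist1h2aa, which share a peak of score 136 with 10.3% repeated words, and which was the only 1 bound of 20 pairs of Hist genes. Histone copies are near-identical, so reads could be split between them, which was not tested. Of Zfp zinc finger genes 5 of 29 gene identifiers were bound (17.2%), namely Zfp664 under both of its identifiers, Zfp277 (304), Zfp597 (218) and Zfp866 (177). Of collagen genes 2 of 4 were bound, both at the single pair of Col4a3 and Col4a4.

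The counts of regulatory genes in divergent pairs were small. In pairs were 19 of 134 chromatin modifiers and 9 of 189 homeobox, forkhead and Sox factors. A list of cilium and intraflagellar transport genes had 14 of 64 in pairs. Chromatin modifiers had 3 of 19 bound (15.8%), the histone demethylase Kdm1b (133), Prmt7 and Kat2a, all with low scores. Of 115 such genes elsewhere 24.3% had a peak, beside 13.9% of all genes outside pairs. Homeobox, forkhead and Sox factors had 1 of 9 bound, Irx5, and the cilium and intraflagellar transport list 1 of 14, Kif1c (159). Kif1c is a kinesin gene counted through that list, and a role in cilia was not shown here. The interval of each of the 12 lists included 14.5%, so no list stood apart from the other genes in pairs at these numbers.

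The motifs of SP/KLF and E2F factors were more frequent around bound pairs. In the 600 bp around the pair centre, on either strand, the letters GGGCGG of SP/KLF factors were present in 90.1% of bound pairs (84.9 to 93.9%) and 71.6% of pairs with no peak (68.8 to 74.3%), beside 51.8% of all other promoters and 84.3% of bound other promoters (82.9 to 85.7%). The letters TCCCGC of E2F were in 67.5% and 53.5%, beside 37.3% of all other promoters and 64.9% of bound ones, and the reverse strand of this motif can share bases with GGGCGG. The NF-Y motif and the TATA box were less frequent. CCAAT of NF-Y was in 38.7% (31.8 to 46%) and 57.7% (54.7 to 60.6%), beside 41.2% of bound other promoters, and TATAAA in 4.19% and 11%, beside 8.25%. Between bound pairs and bound other promoters the intervals overlapped for each of these 4 motifs. These differences go with the higher CpG and GC content of bound pairs given above, and their part in them was not tested.

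For the other motifs the intervals of bound and unbound pairs overlapped, which does not show that the shares are equal. CCGGAAG of ETS factors was in 24.1% of bound pairs (18.2 to 30.8%) and 32.8% of pairs with no peak (30.1 to 35.7%), beside 13.4% of all other promoters and 13.7% of bound other promoters. TCTCGCGA, a Kaiso motif, was in 5.24% and 4%, beside 1.36%, and GCGCATGC of NRF1 in 8.9% and 6.92%, beside 3.84%. AAGATGGC of YY1 was in 6.28% (3.29 to 10.7%) and 11.6% (9.73 to 13.6%), and CACGTG, an E-box, in 16.8% and 15.2%. The shares of ETS and YY1 were lower in bound pairs, with intervals that overlapped only slightly, and the differences were not tested.

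The share of pairs bound ran from 0% on the X chromosome to 29.2% on chromosome 18 (7 of 24, 12.6 to 51.1%, beside 14% of other promoters there). Pairs were counted here by the stricter rule for both TSSs, which gives 191 bound pairs against 208 by the pair centre. Other promoters were counted by any midpoint within 1000 bp of their TSS, so the 2 shares are not measured alike. On each chromosome with pairs, the interval of the pairs included the share of other promoters. Chromosome 8 had 21 of 85 pairs bound (24.7%, 16 to 35.3%), where 21.6% of other promoters were bound too. Chromosome 11 had 19 of 121 (15.7%) beside 18.9%, and chromosome 7 had 9 of 107 (8.41%) beside 9.24%. The shares lay further apart on chromosome 14 (18.8%, 8.95 to 32.6%, beside 9.19%) and chromosome 15 (7.69%, 1.62 to 20.9%, beside 17.8%). On the X chromosome 0 of 37 pairs were bound, which allows a share of up to 8.11% by the limit of 3 counts (9.49% by the exact interval), and 1.97% of other promoters there had a peak.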

How the data were processed

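V5-Dppa2 ChIP-seq of CGR8 ESCs was analysed from the deposited list of peaks, 1 of 6 libraries of the series; the other 5 were not used here. The authors removed low-complexity reads, aligned the rest to mm9 with Bowtie 0.12.7, removed duplicates with Picard 1.81 and called peaks with MACS 1.4.2, as their methods and processing notes state, and kept peaks past limits on the p-value and on the number of reads. The deposited score is the p-value that MACS gave each peak, as its negative log10 multiplied by 10, and the start and end are on mm9. The list gives neither read counts nor summits, so the depth is unknown, midpoints stand in for summits and a promoter without a peak is one with no call. All peaks of the deposited list are named after a TSS.

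Midpoints were compared with all annotated TSSs of GENCODE M1 protein-coding genes, and divergent pairs were built from the closest TSSs of 2 genes at most 2000 bp apart. Pairs and other genes, taken at 1 TSS a gene, were set side by side with the same window of 1000 bp, overall and within 5 classes of CpG or GC content. Composition was read from the NCBIM37 genome, whose chromosome names and lengths match mm9, over 1000 bp around the pair centre or TSS, over 500 bp downstream of each TSS, and over 600 bp for motifs. Repeated words are the 36-base words of a peak that occur elsewhere in the genome on either strand. Intervals of shares are exact Clopper-Pearson 95% intervals, except that of the share at the pairs' spread over the CpG classes. That interval is a normal approximation with the pairs' spread held fixed. Intervals of medians come from order statistics. The tools were Python 3.11.15 with pysam 0.24.0 and numba 0.67.0 for sequence, scipy 1.17.1 for intervals, pandas 2.3.3 with numpy 2.4.6 for tables and matplotlib 3.10.9 for plots, and the scripts were tested on simulated data.

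The genes named are those at the 10 highest-scoring members, those of 20 textbook divergent pairs, up to 5 bound genes of each of 12 gene lists, the pairs with the 3 shortest (5, because of a tie) and 3 longest distances, and members with more than 2 genes. Sequences shown are stretches between TSSs free of annotated exons. Some items that the rule names are not reported here. The members and lists were chosen with earlier results of these data known. Alternatives tried were a score of at least 200, TSSs of protein-coding transcripts only, a smaller maximum distance of 1000 bp, a window of 500 bp, distance from the nearest base of the peak, and composition over 500 or 2000 bp. The comparison of CpG on the sides, the division of sides at their median, the share at the pairs' spread over these classes, and the alternatives without Gm and Rik genes and without repeated peaks were added after seeing the data.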

Additional observations from a re-analysis of the deposited data

How the results depend on the processing

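No paired analysis was possible because the results come from 1 library and no test, and there was no replicate to leave out. Of 122 alternative values, 84 stayed within the 95% interval of the value reported (or, for a count, within 1.5 times) and 38 moved further. The directions reported held, except that a score of at least 200 turned the order of the bound shares at pair centres (7.4%) and other TSSs (7.77%), likewise that of genes in pairs and other genes, and that the median TSS distance became the longer in bound pairs with that score (142 against 141 bp) and with TSSs at most 1000 bp apart (126 against 119 bp). Genes in pairs and other genes were counted here by a midpoint near any of their TSSs, with main values of 16.4% and 13.9%. The 14.5% given earlier counts genes in a bound pair and is another measure. The peak list has a single depth, which limits every share to calls past the authors' threshold.

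With a score of at least 200 there were 86 members (4.35% of peaks), 89 bound pairs (6.72%), a median score of 320, 7.65% of genes in pairs and 8.11% of other genes bound, 12.3% of other TSSs bound at the pairs' spread over the CpG classes, and 90.2% of midpoints inside a gene on the CpG-richer side. With a window of 500 bp, members were 4.35% of peaks, 11.3% of pairs were bound, 99.3% of members covered both TSSs, bound shares were 14.3% for genes in pairs, 12.3% for other genes, 12.8% at pair centres, 11% at other TSSs and 18.3% at the pairs' spread, and TSSs of bound pairs were a median of 107 bp apart. Distance from the nearest base gave 84.5% of members that covered both TSSs. TSSs of coding transcripts only gave a median distance of 158 bp in pairs with no peak. TSSs at most 1000 bp apart gave 119 bp in pairs with no peak, a CpG ratio of 0.757 there and 22.8% at the pairs' spread.

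Composition over 500 bp gave CpG ratios of 0.891 in bound pairs and 0.784 in pairs with no peak, with 20% at the pairs' spread; over 2000 bp these were 0.74, 0.645 and 22.8%. Without Gm and Rik genes, members were 3.99% of peaks, and 14.8% of other genes and 14.1% of other TSSs were bound. Without peaks of over 5% repeated words, 14.8% of genes in pairs, 11.8% of other genes and 11.3% of other TSSs were bound, and 18.6% at the pairs' spread. Under every alternative run, the share of other TSSs at the pairs' spread stayed above the share of pair centres bound (21% and 15.4% without Gm and Rik genes). The cause of these shifts was not tested beyond what each alternative changes by construction.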
